A study of Mus musculus with 6 samples.

Results

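Endothelial and blood vessel genes were examined in bulk RNA-seq of the heads of mouse embryos collected at embryonic day 9.5. The set names 9 genes: Cldn5, Jam2, Heg1, Adamts1, Vegfb, Erg, Ets2, Runx1 and Tfrc. They were picked for their vascular or blood function and selected on the measured levels around them: rows with their names lie on chromosome 16 or the first 10 Mb of chromosome 19, where levels had been seen to fit gene names. Of the 9, 8 have a row among the 15734 rows of the table, and Ets2 was not analysed here. The 3 mutant libraries came from embryos homozygous for msp3, an allele of Baf155, which is encoded by Smarcc1 and forms part of the core of BAF chromatin remodellers, and are labelled as having a neural tube defect. The 3 wild-type libraries came from homozygous wild-type embryos. Both genotypes share a mixed C57BL/6J and 129/SvImJ background, and the tissue was cut above the pharyngeal arches and otic vesicles. Embryos had 19 to 21 somites by their labels and 21 to 23 by the series text. Litter and sex are not given.

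Endothelial cells line blood vessels. In the head at this stage they form a plexus around the neural tube, whose vessels later gain the tight junctions of the blood-brain barrier. Claudin-5 (Cldn5) seals those tight junctions and Jam2 is an adhesion molecule of endothelial and other cell contacts. Heg1 is the transmembrane receptor that binds the CCM complex and steadies endothelial junctions, and Adamts1 is a secreted protease of the extracellular matrix. Vegfb is a ligand of the receptor VEGFR1, and Erg and Ets2 are transcription factors of the ETS family, of which Erg is a hallmark of endothelium. Runx1 is required for blood cells to emerge from haemogenic endothelium, and Tfrc is the transferrin receptor, which carries iron into dividing cells and above all into red cell precursors. In bulk tissue, fewer cells of a type and less RNA per cell cannot be told apart.

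Of the 8 rows, 6 lie in runs that were picked because levels in them matched gene names, and those of Erg and Vegfb lie beyond the ends of these runs. The values that follow include those that set the runs, so they describe the choice and are no independent check. Names inside the runs are called supported below, in that sense only. Among 26 broadly expressed genes in the runs that hold the 6, all had a mean normalized read count of 1000 or more, with a median of 20667. Among 11 tissue-restricted genes there, such as Ahsg of liver and Prm3 of sperm, 0 reached 1000, and the highest mean was 864. Near Cldn5, Ranbp1 averaged 54929, Hira 19069 and Mrpl40 4638, while Tssk1 and Tssk2, kinases of the testis, averaged 10.5 and 16.8. Around Erg, 1 of 6 broadly expressed genes reached 1000. There Brwd1 averaged 14.8, Wrb 11.6 and Ttc3 493, while Kcnj6, a neuronal potassium channel next to Erg, averaged 14516. Around Vegfb, 1 of 10 broadly expressed genes reached 1000, with Cox8a of the respiratory chain at 21.3 and the chaperone Fkbp2 at 14.1. These neighbours of each gene were picked after their levels were seen. What is given for Erg and Vegfb therefore describes a row bearing that name, which may not hold the gene's own reads.

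**Figure D1:**
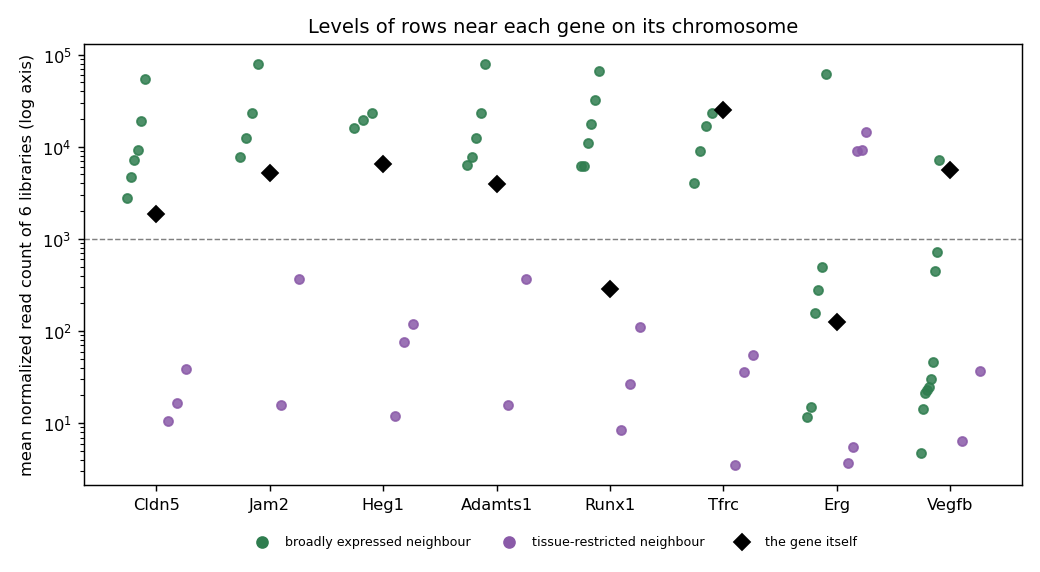
Mean normalized read count over 6 libraries (log axis) of each gene (diamond) and of rows near it on its chromosome, broadly expressed (left, green) or tissue-restricted (right, purple), with a dashed line at 1000. Near the first 6 genes all green points lie above the line and all purple ones below it, and near Erg and Vegfb 1 green point each lies above it.

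Reads counted into rows ranged from 63132575 to 82067578 in mutant libraries and from 46170743 to 64024789 in wild-type libraries. Mutant 2 stood apart, at 44.1 on the first principal component (36.0% of the variance), where the other libraries lay between -20.3 and 3.38. The row named Smarcc1, on chromosome 9 where names are not supported, averaged 41152 ± 9892 in mutants and 51848 ± 9944 in wild type (SD, n = 3 each). The tissue itself could be checked with few supported markers. The neural progenitor factor Hes1 averaged 4273 ± 1288 in mutants and 4024 ± 259 in wild type (SD, n = 3 each). Of 20 other endothelial markers, such as Cdh5, Pecam1 and Kdr, 14 had rows and 0 of these lay where names are supported, so these defining markers could not be used as a check.

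The stretch of chromosome around the start of Cldn5 is shown because Cldn5 is the 1 gene of the 8 whose genotypes did not overlap. It did not pass with limma, and 19.1% of all tested rows did not overlap in either direction. Heg1, which was also lower in mutants on average, is shown beside Cldn5. The windows run from 250 bases before to 50 after the annotated start (RefSeq, GRCm38.p6), both on the plus strand. They lie at chr16:18776597-18776896 for Cldn5 and chr16:33684216-33684515 for Heg1. Capitals mark GGAAG, 1 form of the core of ETS factor sites, searched on both strands, where the minus strand reads CTTCC. Other forms of that core were not searched and are not marked.
Cldn5: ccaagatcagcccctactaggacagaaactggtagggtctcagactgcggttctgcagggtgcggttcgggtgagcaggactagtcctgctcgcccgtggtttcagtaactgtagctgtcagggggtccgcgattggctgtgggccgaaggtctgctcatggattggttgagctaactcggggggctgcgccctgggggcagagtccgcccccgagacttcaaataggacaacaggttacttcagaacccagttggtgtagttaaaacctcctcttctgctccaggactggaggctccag
Heg1: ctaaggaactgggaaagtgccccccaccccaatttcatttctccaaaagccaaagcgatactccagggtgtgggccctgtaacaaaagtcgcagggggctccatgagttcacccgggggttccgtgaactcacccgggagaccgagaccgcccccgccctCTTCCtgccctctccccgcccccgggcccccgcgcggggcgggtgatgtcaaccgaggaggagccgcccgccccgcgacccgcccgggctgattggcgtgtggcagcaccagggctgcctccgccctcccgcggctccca
The Cldn5 window holds 0 matches, and the Heg1 window holds 1, on the minus strand at -90 from the start. Of all 32851 windows of this length, 71.4% hold GGAAG on either strand, so a match is common. The Cldn5 window is 58.3% G and C with 12 CpG, against 69.0% with 25 CpG for Heg1 and a median of 52.7% with 7 CpG over all windows. Both windows were also searched, on both strands, for 4 other motifs, with 0 matches in either. The RUNX core TGTGGT occurs in 16.8% of all windows and the forkhead core TGTTTA in 13.4%. The core bound by GATA factors, written AGATAA, occurs in 11.2%, and the SOX core ACAAT in 31%. These matches describe letters only, and the lack of one says only that the letters are not in this window.

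None of the 8 genes passed the test between genotypes. With limma on log2(normalized count + 1) and Benjamini-Hochberg adjustment over all 13329 tested rows, 0 of 8 had an adjusted p below 0.05, where 0.0225% of all rows did. At an unadjusted p below 0.05 there was 1 of 8, Cldn5, against 10.8% of all rows. edgeR on reads recovered from the normalized values called 0 of 8 (0.015% of all rows), and DESeq2 called 1 of 8, again Cldn5 (1.38% of the rows it tested, 0.471% as lower in mutants). Earlier results of these data, including that of Cldn5, were known when the genes were picked, so the values below describe them and are no independent support.

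Cldn5 had 1491, 1209 and 1719 normalized reads in mutants 1, 2 and 3, against 2403, 2070 and 2417 in wild types 1, 2 and 3. Every mutant value lay below every wild-type value, with a gap between the highest mutant and the lowest wild type. It was the only one of the 8 genes whose genotypes did not overlap (12.5%), a share that is not above that of all tested rows. Over all tested rows 19.1% did not overlap in either direction, and 10.4% had all mutant values below all wild-type values. The mean was 1473 ± 255 in mutants and 2297 ± 196 in wild type (SD, n = 3 each). The log2 difference was -0.65 with a 95% interval of -0.96 to -0.35, or a fold of 0.637. The limma adjusted p was 0.318, rank 42 of 13329 by p. DESeq2 gave a log2 difference of -0.63 and an adjusted p of 0.00176, and limma with array quality weights also called it (adjusted p = 0.0445, with 0.45% of all rows called). Over 17 alternatives the adjusted p ran from 0.00176 to 0.737. The two-sided exact permutation test had p = 0.1, the smallest that 3 against 3 allows.

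The lower Cldn5 values were seen in each mutant library, and rows near Cldn5 differed among themselves. Without mutant 2 the log2 difference was -0.52 and without mutant 3 it was -0.77. The lowest library held 1193 Cldn5 reads, a counting error of 2.90%. On one side of Cldn5 lies Cdc45, a replication factor, with 9264 ± 176 in mutants and 9255 ± 140 in wild type (SD, n = 3 each), a log2 difference of 0.0015. Farther off on the other side Sept5, a septin, had 3014 ± 121 in mutants and 2415 ± 205 in wild type (SD, n = 3 each), a difference of 0.32 (limma, adjusted p = 0.367). Next to Sept5, the platelet glycoprotein gene Gp1bb differed by 0.43 (limma, adjusted p = 0.404), and its exons share 1902 bases with Sept5 on the same strand in the annotation, so its reads may be counted in both rows. Tbx1, which encodes a T-box factor of the pharyngeal arches and lies beyond Gp1bb, had 1507, 1735 and 2074 in mutants against 2945, 2049 and 2716 in wild types, which overlapped. Its log2 difference was -0.53 (limma, adjusted p = 0.396). These 4 rows were singled out after their values were seen.

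**Figure D2:**
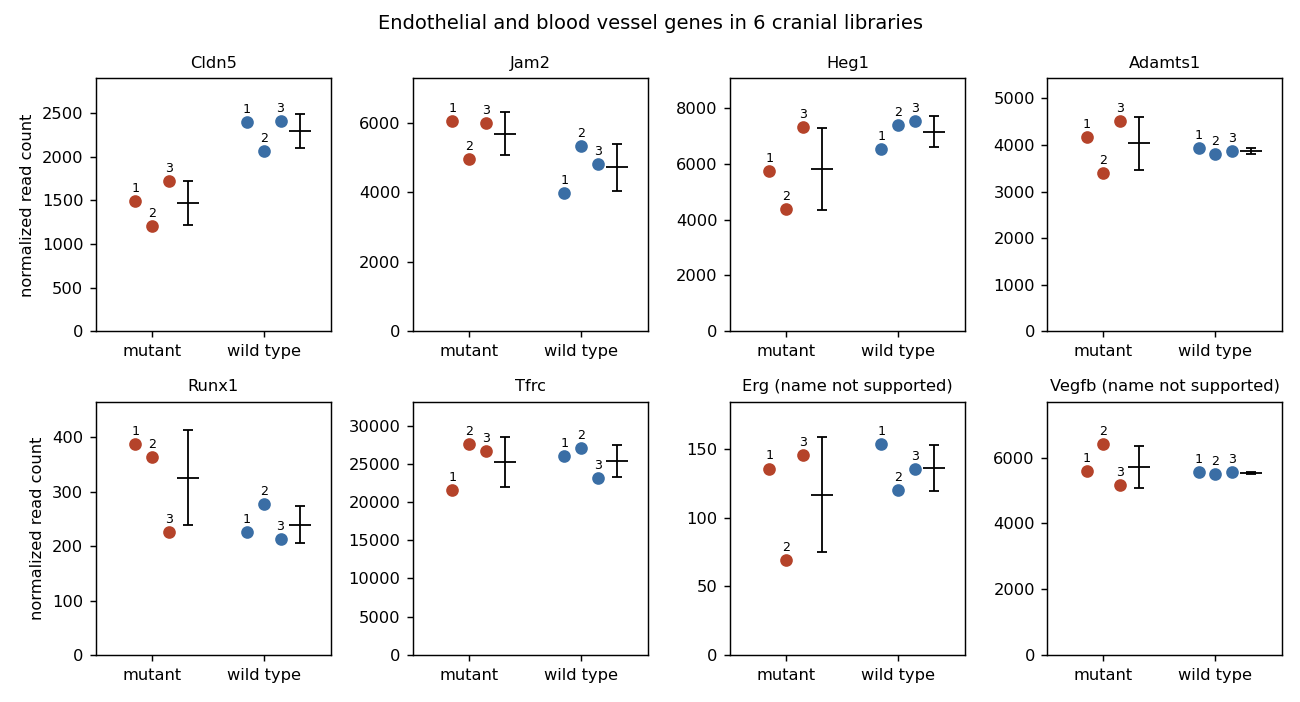
Normalized read count (vertical axis, from 0) of the 8 genes in each of 3 mutant (left, red) and 3 wild-type (right, blue) libraries, numbered by replicate, with the mean and SD beside the points. In Cldn5 the mutant points (1209 to 1719) all lie below the wild-type points (2070 to 2417), and in the other 7 genes the genotypes overlap.

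The second junction gene, Jam2, was on average higher in mutants. It had 6072, 4973 and 6015 normalized reads in mutants 1, 2 and 3, against 3996, 5333 and 4830 in wild types 1, 2 and 3. Mutants 1 and 3 lay above all wild types, and mutant 2 lay between wild types 2 and 3. The log2 difference was 0.27 with a 95% interval of -0.0026 to 0.55 (limma, adjusted p = 0.462), and 0.16 without wild type 1. The two-sided exact permutation test had p = 0.2.

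Heg1 was on average lower in mutants, but 1 mutant reached the wild-type range. It had 5731, 4372 and 7320 normalized reads in mutants 1, 2 and 3, against 6524, 7406 and 7554 in wild types 1, 2 and 3. Mutants 1 and 2 lay below all wild types and mutant 3 lay between wild types 1 and 2. The log2 difference was -0.33 with a 95% interval of -0.71 to 0.04 (limma, adjusted p = 0.486). It moved with 2 mutant libraries, to -0.14 without mutant 2 and -0.51 without mutant 3. Its exons share 318 bases with the antisense gene Gm15657, and the use of strand in counting is not given in the sources used here.

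Adamts1 had 4170, 3403 and 4525 normalized reads in mutants 1, 2 and 3, against 3929, 3812 and 3866 in wild types 1, 2 and 3. The wild-type values lay close together, within the spread of the mutants, and the coefficient of variation was 14.2% in mutants and 1.51% in wild types. Between genotypes the log2 difference was 0.05 with a 95% interval of -0.19 to 0.29 (limma, adjusted p = 0.86), and it turned to -0.0384 without mutant 3.

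The haematopoietic factor Runx1 was the lowest of the 6 genes with supported names, also per kilobase of exon. It had 388, 364 and 227 normalized reads in mutants 1, 2 and 3, against 226, 278 and 214 in wild types 1, 2 and 3. Mutants 1 and 2 lay above all wild types, and mutant 3 lay among them. Mutants minus wild type differed by 0.41 on the log2 scale with a 95% interval of -0.08 to 0.91 (limma, adjusted p = 0.504). It was 0.66 without mutant 3 and 0.27 without mutant 1. The lowest library held 165 Runx1 reads, a counting error of 7.78%. Its exons share 106 bases with the antisense gene Gm26626.

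Tfrc, the iron uptake receptor, was the highest of the set, also per kilobase of exon. It had 21559, 27563 and 26722 normalized reads in mutants 1, 2 and 3, against 26035, 27020 and 23092 in wild types 1, 2 and 3. All wild-type values lay within the range of the mutant values. The log2 difference was -0.01 with a 95% interval of -0.24 to 0.22 (limma, adjusted p = 0.972), so that a change beyond 0.24 in either direction lay outside the interval. Its sign turned with the scaling, to 0.0059 with equal medians, and no direction was read.

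The row named Erg had 136, 68.9 and 146 normalized reads in mutants 1, 2 and 3, against 154, 120 and 136 in wild types 1, 2 and 3. Mutant 2 lay far below the other libraries, with 68 reads and a counting error of 12.1%. The log2 difference was -0.29 with a 95% interval of -0.93 to 0.36 (limma, adjusted p = 0.696), and 0.05 without mutant 2. The row named Vegfb had 5601, 6409 and 5156 normalized reads in mutants 1, 2 and 3, against 5550, 5493 and 5564 in wild types 1, 2 and 3. Its log2 difference was 0.04 with a 95% interval of -0.15 to 0.24 (limma, adjusted p = 0.856), and -0.0427 without mutant 2.

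Mutant 2 was an extreme of several genes. It was the lowest of all 6 libraries in Cldn5, Heg1, Adamts1 and the Erg row, and the highest in Tfrc and the Vegfb row. The part of that library's overall position in these values was not tested. With mutant 2 left out, the signs of Cldn5, Heg1, Jam2 and Runx1 were unchanged.

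**Figure D3:**
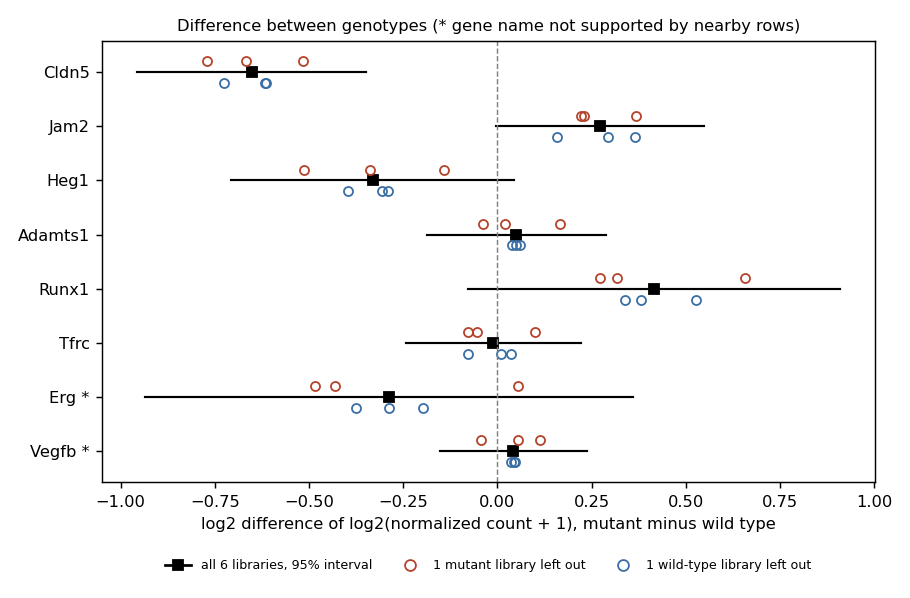
Log2 difference of mutant minus wild type for the 8 genes (squares, with 95% limma intervals) and the same with 1 library left out (open circles, red for mutant and blue for wild-type libraries). The Cldn5 interval (-0.96 to -0.35) lies left of 0, those of the other 7 genes cross 0, and the circles of Erg, Vegfb, Adamts1 and Tfrc lie on both sides of it.

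As a share of most other vascular genes within the same library, Cldn5 was lower in mutants, a comparison that does not depend on how libraries were scaled. The shares reuse the Cldn5 values above and are no further support, and those of Jam2 also hold its higher average in mutants. How often such shares are apart for other pairs of rows was not tested. As a share of Jam2, Cldn5 was 24.6%, 24.3% and 28.6% in mutants 1, 2 and 3, against 60.1%, 38.8% and 50.03% in wild types 1, 2 and 3. As a share of Adamts1 it averaged 36.4% ± 1.35 in mutants and 59.3% ± 4.4 in wild type (SD, n = 3 each). As a share of Tfrc it averaged 5.91% ± 1.34 in mutants and 9.12% ± 1.41 in wild type (SD, n = 3 each). These shares did not overlap between genotypes. Against Heg1 the gap was narrow, with 27.7% in the highest mutant and 28.0% in the lowest wild type. Against Runx1 the genotypes overlapped, since mutant 3 stood at 759% and wild type 2 at 745%. The ratios were formed after the Cldn5 values were seen and are given without a test.

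**Figure D4:**
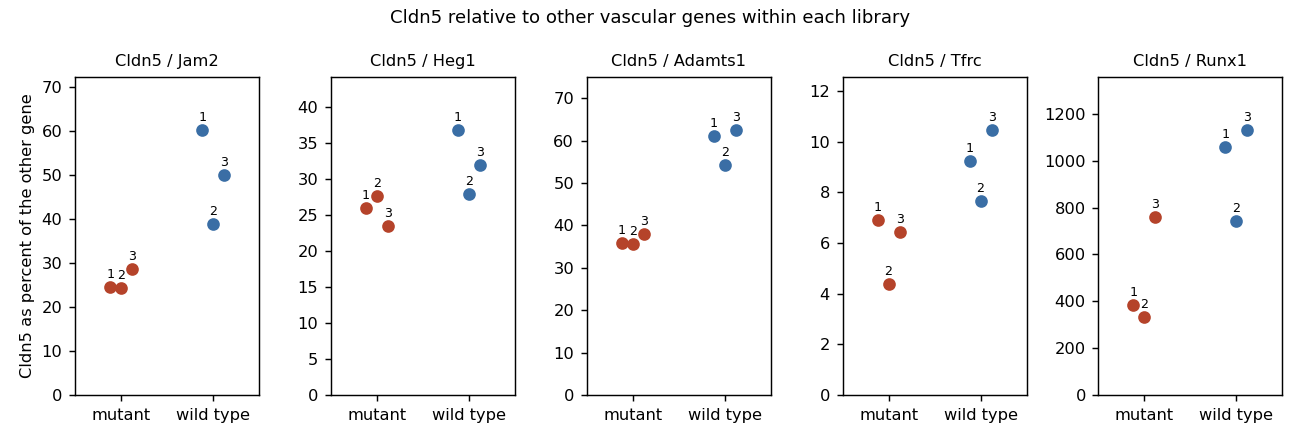
Cldn5 as a percent of each of 5 other genes within the same library (vertical axis, from 0), for 3 mutant (left, red) and 3 wild-type (right, blue) libraries numbered by replicate. Mutant and wild-type points are apart for Jam2, Adamts1 and Tfrc, nearly touch for Heg1 (27.7% and 28.0%) and overlap for Runx1.

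Levels could be ordered between genes per kilobase of annotated exon. Over the 6 libraries Tfrc averaged 4875 normalized reads per kilobase, Cldn5 1331, Jam2 861, Adamts1 809, Heg1 620 and Runx1 37.9. Tfrc (4149 to 5305) and Runx1 (28.7 to 52.0) lay apart from the rest in every library. The range of Cldn5 over the libraries (854 to 1707) overlapped those of Jam2 and Adamts1, but within every library Cldn5 lay above both. Ranges of Jam2 (661 to 1005) and Adamts1 (697 to 927) overlapped, and their order changed between libraries. Heg1 (418 to 722) overlapped both ranges, but within every library it lay below both genes. In mutants Cldn5 averaged 1040 ± 180 and Jam2 941 ± 102 per kilobase, while in wild type Cldn5 averaged 1622 ± 139 and Jam2 781 ± 112 (SD, n = 3 each). Cldn5 was thus above Jam2 in both genotypes and closer to it in mutants. Exon lengths came from a GRCm38 annotation, which is not the build of the table, so these levels are approximate.

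None of the other vascular and blood genes with supported names passed. Of 32 such rows tested besides the 6 genes, 0 passed with limma, with edgeR or with DESeq2. The log2 difference was above 0 in 9 and below 0 in 23 (71.9%, against 51.1% of all tested rows), which was not tested as a set. At an unadjusted p below 0.05 with limma, 1 was higher (3.12%, against 5.31% of all rows) and 4 were lower (12.5%, against 5.52% of all rows). Mutant and wild-type values were fully apart in 6 rows that were lower (18.8%, against 10.4% of all rows) and in 1 that was higher (3.12%, against 8.69% of all rows). Among all 641 tested rows with supported names, 45.2% had a difference below 0. At an unadjusted p below 0.05 with limma, 5.77% of these were higher and 3.59% lower. Values were fully apart in 6.86% that were lower and 9.83% that were higher. The median log2 difference of the 32 rows was -0.13, where that of all tested rows was -0.0047 and that of all rows with supported names was 0.02. The lists were written with earlier results of these data known.

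The ETS list had 2 rows with supported names, Gabpa, which also controls mitochondrial genes, and Etv5, a target of FGF signalling. Their log2 differences were -0.12 and -0.04, with overlapping genotypes. The claudin and junction list, which includes Cldn5 and Jam2, had 7 tested rows, 3 higher and 4 lower. Genotypes did not overlap in 1 of the 7, Cldn5, against 19.1% of all tested rows in either direction. The list's most abundant row, the adhesion receptor Cxadr, had 14106, 11399 and 12924 in mutants against 14017, 14832 and 14115 in wild types, which overlapped. The epithelial claudin Cldn1 had a log2 difference of 0.02.

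The matrix and mural list, which includes Adamts1, had 8 tested rows, 3 higher and 5 lower, with a median log2 difference of -0.11. Mylk, a kinase of smooth muscle contraction, had a difference of 0.13, and Cd248, a marker of pericytes and mesenchyme, had -0.16. Lpp, a focal adhesion protein, had 5703, 4693 and 5476 in mutants against 6988, 6394 and 6166 in wild types, which did not overlap. Its log2 difference was -0.30 (limma, adjusted p = 0.396).

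The list of angiogenic signalling genes, which includes Heg1, had 11 tested rows with supported names, 3 higher and 8 lower, with a median of -0.14. Genotypes did not overlap in 4 of the 11, all of them lower, against 10.4% of all tested rows in that direction. Robo1, a guidance receptor, and Crkl, a signalling adaptor, had log2 differences of -0.14 each. Genotypes overlapped in Robo1 and did not in Crkl. The Wnt co-receptor Lrp5, singled out after its values were seen, had 8507, 7193 and 8199 in mutants against 10388, 9417 and 9511 in wild types. Its groups did not overlap, and its log2 difference was -0.30 (limma, adjusted p = 0.367). The row named Dyrk1a lies where names are not supported and is not described.

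The platelet and blood list, which includes Runx1 and Tfrc, had 10 tested rows with supported names, 3 higher and 7 lower. Gp1bb had 623, 591 and 558 in mutants against 353, 488 and 491 in wild types, which did not overlap. Gp5, another platelet glycoprotein, had 247, 86.1 and 45.8 in mutants against 52.1, 103 and 40.0 in wild types, which overlapped, with a log2 difference of 0.72 (limma, adjusted p = 0.631). Both were singled out after their values were seen. Bach1, a haem-responsive repressor, had a log2 difference of -0.10 with overlapping genotypes. Klhl6, known for its role in B cells, had 840, 632 and 737 in mutants against 1064, 929 and 976 in wild types, which did not overlap. Its log2 difference was -0.43 (limma, adjusted p = 0.371). Of the erythroid markers, 7 of 10 had rows and 0 lay where names are supported.

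Rows of the neuronal list, which are not all markers of neurons alone, were on average higher in the mutant libraries, and 0 passed. The list's 7 rows with supported names were Gap43, Sst, Ncam2, Robo2, Epha3, Olig1 and Olig2. They summed to 12816 to 14980 normalized reads in mutants and 9671 to 11626 in wild types. Most of that sum was Gap43 and Robo2, so it says little about the less abundant rows. Of the 7 rows 6 were higher and 1 lower, with none of them at 0, where 51.1% of all tested rows were lower. The axonal gene Gap43 differed by 0.30 and the neuropeptide gene Sst by 2.92 on the log2 scale (limma, adjusted p = 0.331 for both). Sst was singled out after its values were seen. It had 1034, 651 and 1227 in mutants against 32.9, 201 and 278 in wild types. Its 95% limma interval was wide, from 1.36 to 4.48. Robo2 was the 1 lower row, with a log2 difference of -0.09 and overlapping genotypes. The 4 epithelial rows summed to 13030 to 16786 in mutants and 15717 to 16379 in wild types, which overlapped. Most of that sum was Cxadr, also in the junction list, with a log2 difference of -0.17. The differences of Trp63, Ovol1 and Cldn1 were 0.18, 0.26 and 0.02, so the sum says little about these less abundant rows. Whether a different mix of cells has a part in the Cldn5 values was not tested.

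**Figure D5:**
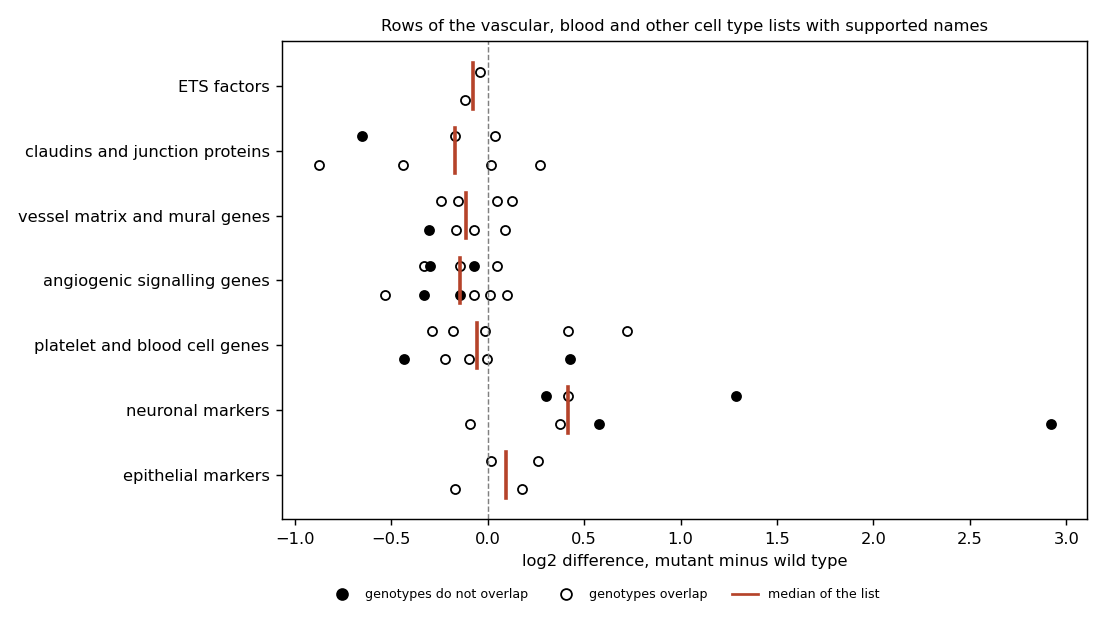
Log2 difference of mutant minus wild type for the tested rows with supported names in 7 gene lists, filled where the genotypes do not overlap and open where they do, with a red bar at the list's median. The 5 vascular and blood lists have medians below 0, and the neuronal list has its median at 0.42.

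The rows whose profiles were most like those of the vascular genes were found among 595 rows of both stretches with a mean of at least 100, over 6 libraries. The measure is the root mean square difference of log2 values centred on each row's mean. It includes the difference between genotypes, so rows picked as most like a gene tend to share its direction and separation. Their values describe that choice and are no independent support. Nearest to Cldn5 were Nlrc3 (0.154), Fstl1 (0.163) and Klhl6 (0.167). Fstl1, a secreted glycoprotein of mesenchyme, had 23288, 16056 and 22066 in mutants against 27415, 24376 and 27181 in wild types, which did not overlap. Nearest to Heg1 were Cyyr1 (0.0545), Kng2 (0.103) and Arhgap31 (0.11), the last a GTPase-activating protein of Rac1 and Cdc42. Cyyr1 had 391, 327 and 539 in mutants against 478, 559 and 582 in wild types, with mutant 3 inside the wild-type range as in Heg1. Nearest to Jam2 were Wdr52 (0.0783), Boc, a Hedgehog co-receptor (0.0943), and Zfp174 (0.103). Tfrc was most like Sec22a (0.0664), Senp2 (0.0736) and Snord2 (0.0745). Runx1 was most like Tmem191c (0.122), Naaladl1 (0.14) and Ovol1 (0.158), and Adamts1 like Zfp148 (0.0613) among supported names. The Vegfb row was most like Ppp1ca (0.0138) and the Erg row most like Nrip1 (0.163).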

How the data were processed

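Polyadenylated RNA of 6 libraries was prepared with the TruSeq RNA v2 kit, per the labels' protocols. CASAVA 1.7, bedtools and the mm9 build are named in the submitters' processing notes, while the sources used here do not give their roles, the annotation or the counting rule. The authors deposited a normalized signal per gene row, the read count divided by a factor per library. Values were whole multiples of 1 step per library for 100% of values (tolerance 0.001 reads), so reads could be recovered. The authors' means and SDs, their sheet of 1 row and 12 unlabelled columns were not used.

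Members and lists were chosen with earlier results of these data known. Because values were normalized, log2(value + 1) of the 13329 rows with a mean of at least 10 was tested with limma 3.58.1 (R 4.3.3), with its trended variance, two-sided. edgeR 4.0.16 and DESeq2 1.42.0 were run on recovered reads, and DESeq2 gave no adjusted p for 2073 rows. The limma step was tested on simulated counts with known changes. The labels do not say whether embryos share litters, so p-values measure the spread between these samples. Positions came from RefSeq GRCm38.p6 by symbol (14324 rows) or older symbol (1288 rows), for order only. The runs with supported names end at Sim2 on chromosome 16 and Nrxn2 on chromosome 19, and hold 693 rows. They were set after seeing the levels. Named rows are all members, the up to 4 most abundant rows per list and the 3 nearest profiles per member. Alternatives were other normalizations, filters, pseudocounts, weights, a replicate block and leaving out libraries. One row that this rule names is not reported here.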

Additional observations from a re-analysis of the deposited data

How the results depend on the processing

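The number of all rows passing, 3 with limma, was 5 with quantile normalization, 5 with equal medians, 5 at an adjusted p below 0.1, 0 without a mean-variance trend, 60 with array quality weights and 155 with DESeq2 on recovered reads. Leaving out 1 library at a time gave 0 to 14. The number of vascular genes passing was 1 with array quality weights and 1 with DESeq2 on recovered reads, Cldn5 in both, and 0 in the other alternatives run, among them the supported names alone, which was added after seeing the data. With the replicate block 3 rows and 0 vascular genes passed. The correlations of same-numbered deviations, -0.0448, -0.000253 and 0.0585, gave no sign of pairing. Of the other vascular rows 0 passed in every alternative run. Signs turned, without single libraries, in genes that did not pass: Adamts1 ran from -0.0384 (without mutant 3) to 0.167, Vegfb from -0.0427 (without mutant 2) to 0.114, Erg from -0.483 to 0.0535 (without mutant 2). Without single libraries Tfrc ran from -0.0776 (without wild type 3) to 0.0997 (without mutant 1). It was -0.113 with array quality weights, 0.0059 with equal medians, 0.0024 with edgeR, 2.11e-05 with DESeq2, 0.009 without wild type 1 and 0.0357 without wild type 2. Cldn5, Jam2, Heg1 and Runx1 kept their sign in all 17 alternatives. The cause was not tested. Counting error limits the Erg and Runx1 rows most.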
